A study of Drosophila melanogaster with 12 samples.

Results

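Heads of female and male flies kept alone were compared by RNA sequencing, with 3 libraries of isolated females against 3 libraries of isolated males. These are 6 of the 12 libraries of a study of social isolation in adult Drosophila melanogaster of the ORE-R genotype (the Oregon-R wild type). All flies had first lived in mixed-sex company for 3 to 5 days after eclosion. They were then placed alone, or in single-sex groups of 25, for 7 days, and were frozen within a day of the end of that period. Each library holds polyA RNA from 200 whole heads, so that brain, eye, antenna, fat body, muscle, blood cells and cuticle are read together. More cells of a type and more RNA per cell cannot be told apart in such material. Replicate 0 of every group belonged to batch 1, and replicates 1 and 2 to batch 2. All 17856 gene rows were candidates, and 9810 passed the filter on low counts and were tested in both the isolated and the group-housed comparison.

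Sex in the fly is set by the splicing cascade of Sex-lethal (Sxl), transformer (tra) and doublesex (dsx), which acts cell by cell. Males raise transcription of their single X chromosome with a complex built on the noncoding RNAs roX1 and roX2 and the protein MSL-2. The fat body, the fly's counterpart of liver and adipose tissue, also surrounds the brain. It makes the yolk proteins of females, and it carries several genes with known sex bias in the head, such as female-specific independent of transformer (fit) and takeout (to).

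Total counts over features were 9637727, 2584050 and 3224485 in isolated females 0, 1 and 2, and 12262307, 14535524 and 5312973 in isolated males 0, 1 and 2. The file marks the column of isolated male 1 as merged, without saying of what. Isolated females 1 and 2 stood apart from the other 4 libraries on the first principal component of the 6 (53.1 and 37.1, against -6.47 for isolated female 0 and -31.3 to -22.7 for the males), which held 46.3% of the variance. These 2 libraries were also the shallowest, and their 10 most abundant genes took 9.8% and 8.6% of counts, against 4.22% to 5.72% in the males. In them the summed level of 27 ovary and germline markers was 138.5 and 172.4 CPM (counts scaled to library size), against 30.6 in isolated female 0 and 24.8 to 50.9 in the males. That sum came mainly from CycB3, yl and otu, while the vitelline membrane genes Vm26Aa, Vm26Ab, Vm32E and Vm34Ca had no read in any of the 6 libraries. Whether this signal has a part in the results was not tested; the counts below are also given with isolated females represented by replicate 0 alone. That arm is then 1 library whose spread is assumed to be like that of the other groups, and the filter then kept 11376 genes rather than 9810, so the number of libraries and the genes tested both differ from those of the fit with all 12 libraries.

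In isolated flies the sex difference was lopsided. The edgeR quasi-likelihood test with Benjamini-Hochberg adjustment put 363 genes (3.7% of those tested) higher in females and 66 genes (0.673%) higher in males. The difference was at least 2-fold for 134 of the genes higher in females and 39 of those higher in males, and at least 4-fold for 40 and 20. Every library of 1 sex lay above every library of the other for 349 of the 363 and for all 66. Among all tested genes such separation was seen for 1177 (12%) with females above and 983 (10%) with males above. Within batches, 361 of the 363 and 66 of the 66 kept their sign in both, while 68% of all genes had the same sign in both. The called genes were chosen on the values of these same libraries, so neither the separation nor the shared sign is independent support.

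**Figure D1:**
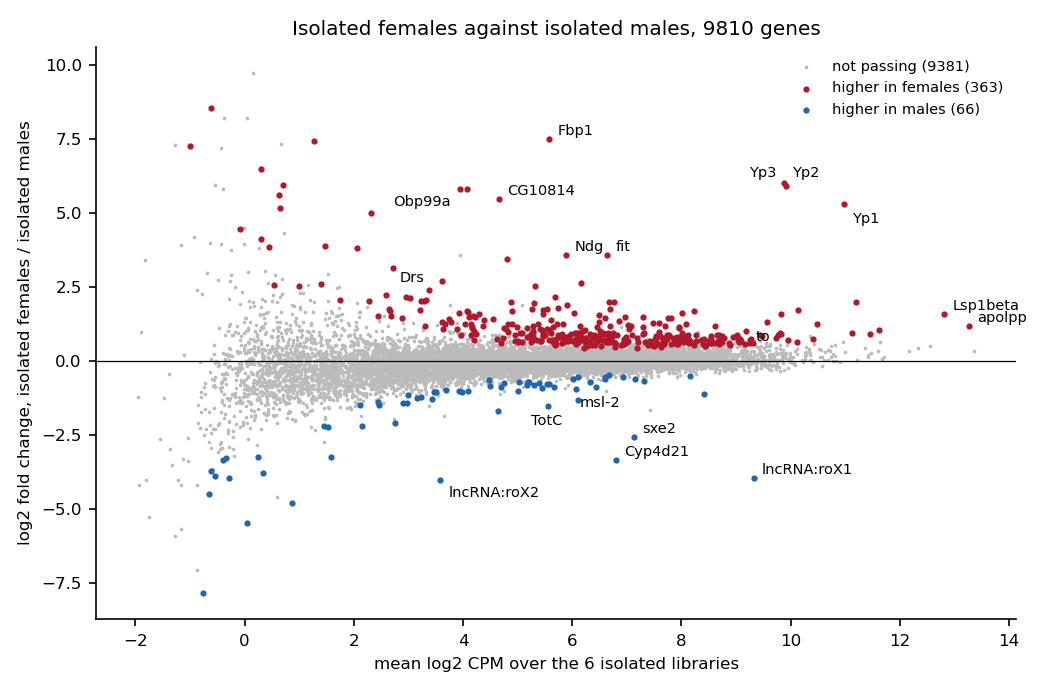
Difference between isolated females and isolated males for 9810 genes. The x axis is the mean log2 CPM over the 6 isolated libraries and the y axis the log2 fold change, females over males, from the edgeR fit; red points are the 363 genes that passed higher in females, blue points the 66 higher in males, grey points the rest. The yolk protein genes Yp1, Yp2 and Yp3 and the serum protein receptor gene Fbp1 lie at the top, roX1, roX2 and Cyp4d21 at the bottom, and takeout (to) lies among the grey points.

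The split between directions depended on how libraries were scaled. With library totals alone in place of TMM factors, 154 genes were higher in females and 169 in males, 47.7% against 84.6% of calls on the female side. That scaling moved the median log2 fold change of all genes from -0.02 to -0.23, so fold changes are best read relative to these medians. The counts also rested on single libraries. The number higher in females was 183 without isolated female 1, 194 without isolated male 2, 214 without isolated male 0 and 226 without isolated female 0. The number higher in males was 18 without isolated female 1, 32 without isolated male 2, 33 without isolated female 2, 39 without isolated male 1 and 120 without group-housed female 2. With isolated females represented by replicate 0 alone, 60 genes (0.527% of 11376) were higher in females and 7 (0.0615%) in males, and 66 of these 67 were among the 429. All 429 kept the sign of their difference in every alternative fit in which they were tested.

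Of 12 tested dosage compensation genes, 3 passed, all higher in males, beside 0.673% of all genes higher in males. roX1 (lncRNA:roX1, X chromosome), an RNA scaffold of the male complex, was at 140.4, 186 and 167 CPM in the 3 isolated females and at 2353, 2127 and 3153 CPM in the 3 isolated males. All males lay far above all females. The log2 fold change was -3.96 (SE 0.22, adjusted p = 1.09e-08). Its partner roX2 had 3.67, 2.25 and 2.08 CPM in females and 49.2, 50.0 and 53.1 CPM in males (log2 fold change -4.03, SE 0.26, adjusted p = 6.84e-08). msl-2, whose protein is limiting for the complex and is blocked by Sxl in females, averaged 48.8 ± 5.51 CPM (SD, n = 3) in females and 92.5 ± 14.3 CPM in males, a log2 fold change of -0.92 (adjusted p = 0.00165). The call of msl-2 was lost in batch 2 only. It was also lost with replicate 0 alone, where the log2 fold change was -0.90. The other 9 tested members of the 12 dosage compensation genes did not pass; their log2 fold changes ran from -0.69 for mof, the histone acetyltransferase, to 0.38 for Unr, an RNA-binding repressor of msl-2. Reads of roX1 cannot be told apart from those of the overlapping gene ec on the other strand, because the strand setting used in counting is unknown here. Such overlap concerned 3293 of the 9810 tested genes. Among them are Ndg, apolpp, Lsp2, AttC, DptB, Obp56e, Obp99c, Gnmt and Cyp4s3, and the caveat is not repeated below for every gene.

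Of 21 tested sex determination genes, msl-2 alone passed, which is near the 4.37% of all genes that passed. Counts per gene do not resolve the sex-specific isoforms of the splicing cascade. Sxl was at 626, 696 and 602 CPM in isolated females and 478, 369 and 485 CPM in isolated males; the libraries did not overlap, but the log2 fold change of 0.53 (SE 0.26) had an adjusted p of 0.339. The log2 fold changes of tra, dsx and fruitless (fru), the male courtship regulator, were -0.76, -0.20 and 0.39 with adjusted p of 0.404, 0.528 and 0.351.

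The yolk protein genes combined high levels with large differences. Yp1 (X chromosome) was at 8979, 18734 and 15336 CPM in isolated females and at 348, 138 and 533 CPM in isolated males. Yp2, its close neighbour on the X, was at 5703, 10359 and 8864 CPM in females against 137, 52.0 and 186 CPM in males. Yp3, the third gene of the family, was at 6495, 9032 and 8053 CPM in females against 164, 65.9 and 157 CPM in males. No male library came near a female one, and isolated female 0, the batch 1 library, was the lowest of the females for all 3 genes. The log2 fold changes were 5.31 (SE 0.49), 6.0 (SE 0.48) and 5.92 (SE 0.41), with adjusted p of 1.54e-05, 4.87e-06 and 3.39e-07. Together the 3 genes took 27330 ± 6360 CPM in isolated females and 604 ± 286 CPM in isolated males. The calls held in all alternative fits, including replicate 0 alone.

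Among called genes whose mean log2 CPM was 1 or more, the largest fold change was that of Fbp1, the receptor through which the fat body takes up larval serum proteins. It was at 634, 670.4 and 499.5 CPM in isolated females and at 4.29, 2.23 and 4.74 CPM in isolated males, so that the log2 fold change reached 7.50 (SE 0.40, adjusted p = 1.66e-07). All 4 tested storage protein genes were higher in females. Lsp1beta, a larval serum protein subunit, was at 9699, 14299 and 14009.6 CPM in isolated females and 4255, 4026 and 4118 CPM in isolated males (log2 fold change 1.60, adjusted p = 0.000442). Lsp2 averaged 4633 ± 279 CPM against 1184 ± 111 CPM (1.99, adjusted p = 0.000445), and Lsp1alpha 1607 ± 368 CPM against 537 ± 147 CPM (1.59, adjusted p = 1.1e-05). Female and male libraries did not overlap for any of the 4. With isolated females represented by replicate 0 alone, Lsp1beta and Lsp2 had log2 fold changes of 1.29 and 1.34 and no longer passed (adjusted p = 0.207 and 0.298), while Fbp1 and Lsp1alpha did.

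The head fat body list as a whole leaned to females, with a median log2 fold change of 0.64, against -0.02 over all genes. None of its 24 tested members was higher in males, and 12 were higher in females, beside 3.7% of all genes. Besides the storage proteins these were the lipid carriers apolpp and Apoltp and their assembly factor Mtp, the lipid genes FASN1, Desat1 and Lsd-2, formaldehyde dehydrogenase (Fdh) and the insulin-like peptide gene Ilp6. Apoltp, the lipid transfer particle, was at 1909, 2112 and 2125 CPM in isolated females and 709, 559 and 591 CPM in isolated males (log2 fold change 1.74, SE 0.21, adjusted p = 8.07e-05). apolpp, the apolipoprotein of the main haemolymph lipid carrier, averaged 14901 ± 1241 CPM against 6496 ± 912 CPM (1.2, adjusted p = 0.00716, and 0.0578 without isolated female 1). The summed level of the list is weighted to its most abundant members, such as apolpp and Lsp1beta, and says little about the others. The sum was 39330, 41680 and 39200 CPM in isolated females and 20390, 18950 and 16710 CPM in isolated males. It was thus high in all 3 females, including the batch 1 library, although 3 members passed with replicate 0 alone and 8 under scaling by library totals.

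Several less abundant genes were also much higher in isolated females. fit, a fat body gene that responds to feeding, was at 398, 388 and 302 CPM in isolated females and at 38.7, 37.5 and 14.2 CPM in isolated males (log2 fold change 3.58, SE 0.30, adjusted p = 1.08e-05). An antisense RNA in the same place, asRNA:CR45046, had a log2 fold change of 5.80 (adjusted p = 6.24e-09), but it overlaps fit on its own strand and the reads of the pair are uncertain. Nidogen (Ndg), a basement membrane protein, was at 213, 213 and 185 CPM in females and 14.6, 18.1 and 18.4 CPM in males (3.58, SE 0.15, adjusted p = 8.1e-10). CG10814 averaged 177 ± 52.8 CPM against 3.66 ± 1.39 CPM, CG7763 27.3 ± 9.21 CPM against 0.768 ± 0.325 CPM and CG10073 16.8 ± 6.57 CPM against 1.11 ± 0.936 CPM. Their log2 fold changes of 5.49, 5.0 and 3.83 passed in all alternative fits. asRNA:CR45629 (X chromosome) had 236 reads over the isolated females and 3 over the isolated males. Scaled to total counts, the ratio was 164 (95% counting interval 55.3 to 799, adjusted p = 6.15e-07). This RNA overlaps CG15308 on the other strand, so its reads are uncertain.

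**Figure D2:**
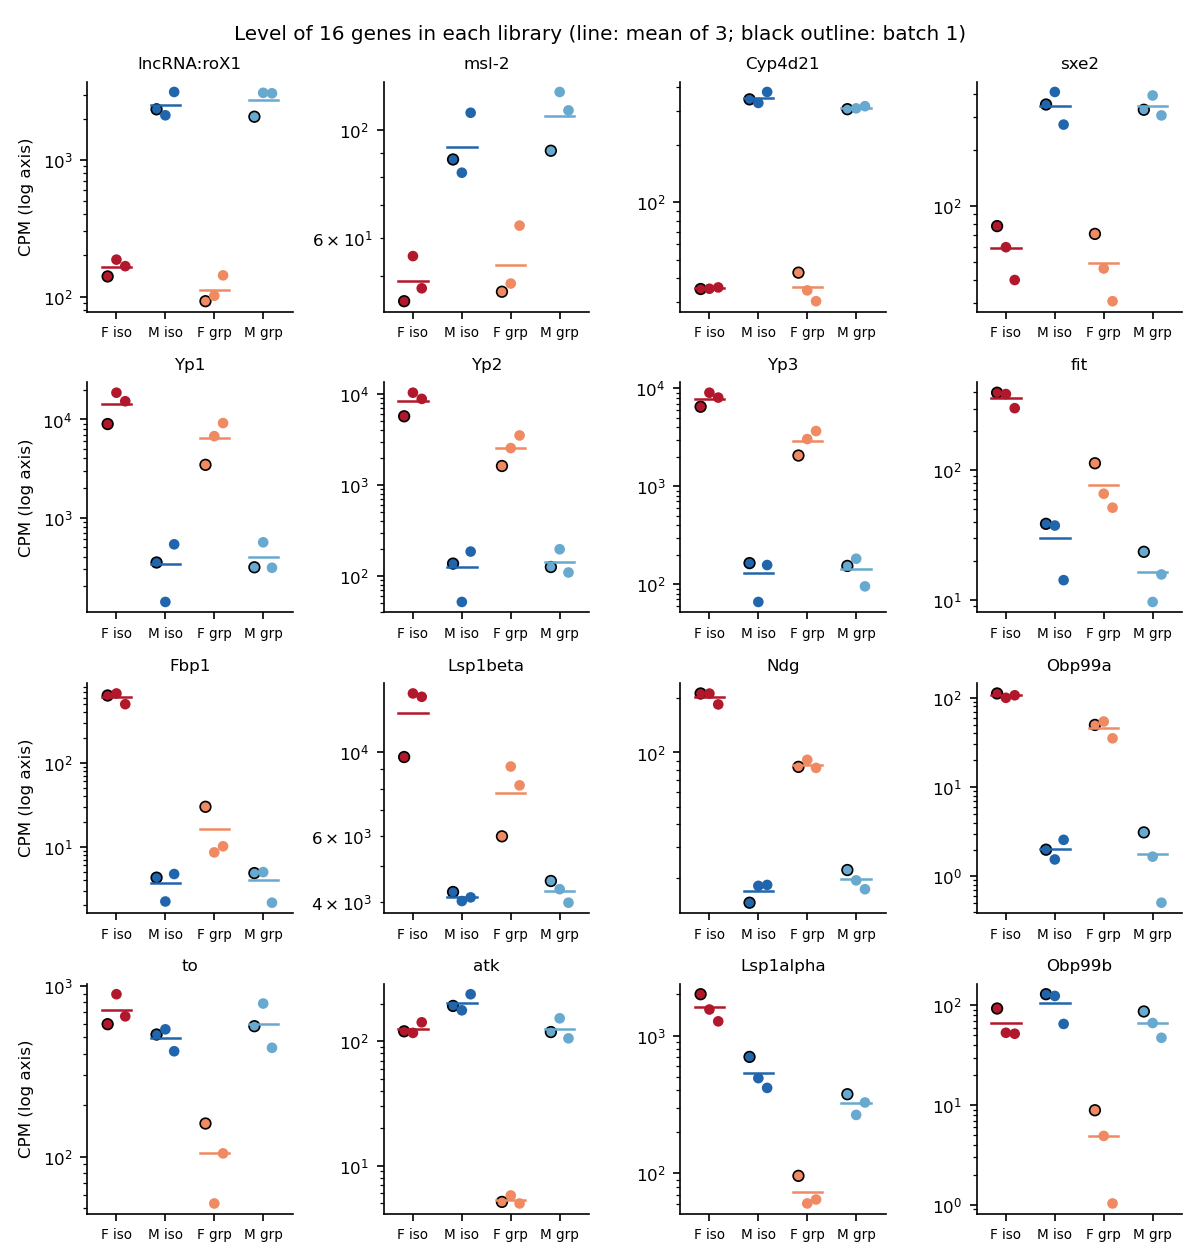
Level of 16 genes in each of the 12 libraries, in CPM on a log axis whose range differs between panels. Dark red and dark blue points are isolated females and males (F iso, M iso), light red and light blue points group-housed females and males (F grp, M grp); the line is the mean of 3 libraries and black outlines mark batch 1. Yp1, Yp2, Yp3, fit, Fbp1, Ndg and Obp99a separate the isolated sexes with females above, roX1, msl-2, Cyp4d21 and sxe2 with males above, and for takeout (to) the isolated sexes lie between 414 and 891 CPM while group-housed females lie lowest.

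Among the 66 genes higher in isolated males were a P450 gene and a lipase-like gene. Cyp4d21 (sex-specific enzyme 1), a cytochrome P450 known to be under the control of the sex determination cascade in the head, was at 35.0, 35.1 and 35.7 CPM in isolated females and 346, 332 and 379 CPM in isolated males (log2 fold change -3.33, SE 0.15, adjusted p = 1.06e-09). sxe2, a lipase-like gene found in the same kind of screen, was at 77.8, 59.9 and 39.8 CPM in females and 352, 411 and 274 CPM in males (-2.57, SE 0.26, adjusted p = 2.18e-05). Both kept their call in every alternative, as did roX1, roX2 and asRNA:CR45479. The last had a log2 fold change of -1.69 (adjusted p = 0.000111) and overlaps Cyp4d14 on the other strand (-2.07, adjusted p = 0.00974), so their reads cannot be told apart.

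The call of some genes higher in males rested on single libraries. CG14787 was at 1.4, 0.45 and 1.04 CPM in isolated females and 9.19, 12.3 and 4.34 CPM in isolated males (log2 fold change -3.22, SE 0.68, adjusted p = 0.0117, and 0.0952 without isolated female 0). CheA87a was at 3.13, 1.8 and 1.04 CPM in females and 6.81, 15.4 and 7.7 CPM in males (-2.17, SE 0.50, adjusted p = 0.0181, and 0.103 without isolated female 1). It overlaps Lip3 on the other strand, so its reads are uncertain. Cyp313a1, another P450 gene, averaged 238 ± 68.1 CPM in isolated females and 507 ± 50.3 CPM in isolated males (log2 fold change -1.11, adjusted p = 0.00146). TotC, a stress-induced haemolymph peptide of the Turandot family, averaged 29.9 ± 15 CPM against 84.5 ± 31.4 CPM (-1.51, adjusted p = 0.0114, and 0.0582 without isolated male 0). Sdr, a secreted decoy of the insulin receptor, and alrm, an astrocyte marker, had log2 fold changes of -0.61 and -0.60, with adjusted p of 0.00762 and 0.0229; without isolated female 1 these rose to 0.0603 and 0.145. CR14798, mh and Xpac lost their calls in 8, 9 and 9 of the 12 fits that left out a library, with an adjusted p of up to 0.184 without isolated female 1, 0.19 without isolated female 0 and 0.167 without isolated female 1. Of the called genes, 13 had at most 3 reads in 1 sex, 9 of them higher in males. For these a ratio of read sums scaled to total counts is given. Its 95% counting interval covers counting error only. Ugt37B1 was 53.9-fold higher in males (9.47 to 2150) and Obp56b 22.4-fold (6.02 to 187). CG43336 had 86 reads in isolated males and 0 in isolated females. The lower end of its counting interval was 11-fold higher in males. With 3 reads over the group of females taken as the floor, the ratio was 13.8.

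Takeout, a secreted carrier-like protein of fat body and antenna named for its circadian and feeding roles, is the gene in the study's title. It was at 595, 891 and 662 CPM in isolated females and 518, 555 and 414 CPM in isolated males. Females lay above males in every library, but narrowly: the log2 fold change was 0.54 (SE 0.32) and did not pass (adjusted p = 0.435). Within batches the difference of log2 CPM was 0.20 in batch 1 and 0.68 in batch 2, and with replicate 0 alone the log2 fold change was 0.02. In groups takeout averaged 105 ± 51.5 CPM in females and 599.7 ± 177 CPM in males. The interaction, the sex difference in isolation minus that in groups, was 3.08 (SE 0.46, adjusted p = 0.00636). That call was lost without group-housed female 2 (adjusted p = 0.07), with no filter on low counts (adjusted p = 0.11) and with replicate 0 alone (2.56, adjusted p = 0.14). Of the 18 tested members of the takeout family, CG3246 and CG5867 were higher in isolated females (log2 fold changes 0.89 and 0.61, adjusted p = 0.00176 and 0.0192), the latter not without isolated female 1 (0.134). The median log2 fold change of the 18 was -0.0094, beside -0.02 over all genes, of which 3.7% were higher in females.

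In group-housed flies the same model called 146 genes (1.49%) higher in females and 126 (1.28%) higher in males. The share of calls higher in females was 53.7%, and it ran from 36.3% with no filter on low counts (780 calls) to 64.6% without group-housed female 0 (178 calls). Some group-housed libraries stood apart in marker sums. In group-housed male 0 the testis markers summed to 922.2 CPM, against 428.8 and 683.9 CPM in the other group-housed males and 275.2 to 531.1 CPM in the females. The accessory gland markers summed to 256.4 CPM in that library, against 0.561 to 11.75 CPM in the other 5, and the serine proteases of the Jonah and trypsin families to 120.5 CPM, against 3.10 to 17.76 CPM. In group-housed female 1 the ovary and germline markers summed to 550.3 CPM, against 18.87 to 103.2 CPM in the other 5. The part of these signals in the group-housed and interaction results was not tested. The 2 comparisons share batches but no library. Of the 363 genes higher in isolated females, 79 were also called higher in group-housed females, which is 21.8% of the first list and 54.1% of the second. Of the 66 higher in isolated males, 22 were called higher in group-housed males, or 33.3% and 17.5%. The signs were largely shared: 84% of the 363 were positive in groups, against 48.6% of all genes, and 95.5% of the 66 were negative, against 51.4%. The median log2 fold change of the 363 was 0.86 in isolation and 0.34 in groups, and that of the 66 was -1.08 and -0.61, where the isolated values are those that chose the genes. Over the 9810 genes (genes are not independent of each other) the 2 sets of fold changes had a Pearson r of 0.57 and a Spearman rho of 0.35.

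The interaction itself passed for 45 genes (0.459%), of which 44 had a sex difference shifted towards females under isolation; 28 of those 44 were among the genes higher in isolated females. Fbp1 was the extreme case, with an interaction of 5.47 (SE 0.54, adjusted p = 0.000346): its group-housed mean was 16.2 ± 11.9 CPM in females and 4.0 ± 1.6 CPM in males. Lsp1alpha reversed, being higher in males in groups (73.6 ± 19.4 CPM in females, 323 ± 55.1 CPM in males) and higher in females in isolation, for an interaction of 3.75 (SE 0.23, adjusted p = 1.57e-07). CG34166, Gcat and Cyp309a2 were the other 3 genes called in opposite directions in the 2 housing conditions; no gene was called higher in isolated males and in group-housed females.

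A second set of genes was higher in males in groups, and in isolation had a smaller sex difference or none that passed. atk, which encodes a leucine-rich repeat protein of sensory organs, averaged 5.28 ± 0.423 CPM in group-housed females and 126 ± 24.6 CPM in group-housed males. In isolated flies it was at 120.5, 117 and 142 CPM in females and 193, 178 and 239.7 CPM in males, a log2 fold change of -0.68 (adjusted p = 0.0182, and 0.131 without isolated female 1), and its interaction was 3.88 (SE 0.24, adjusted p = 1.57e-07). The gustatory receptor gene Gr59f, the odorant binding protein gene Obp99b, the oxidoreductase gene fiz and the glycine methyltransferase gene Gnmt had isolated log2 fold changes of 0.52, -0.74, -0.25 and -0.67, none of which passed. Their interactions were 3.62, 2.94, 3.17 and 2.23 with adjusted p of 0.000109, 0.00636, 0.00176 and 0.00636; with replicate 0 alone, Gr59f kept its call and the others did not. The call of fiz was also lost without a batch term, that of Gnmt with library totals, and that of Obp99b with library totals, with no filter, without a batch term and in batch 2 only (adjusted p of 0.0619, 0.0829, 0.091, 0.129, 0.141 and 0.155 in that order). Sardh, CG3597, Cyp4s3 and the lipase gene dob were higher in isolated females (log2 fold changes 1.2, 1.46, 1.72 and 1.79) without a called difference in groups, and their interactions were 1.57, 1.73, 2.02 and 1.60. In batch 2 only, these 4 interactions did not pass (adjusted p = 0.0656 for Sardh, CG3597 and Cyp4s3 and 0.0831 for dob). The call was also lost without a batch term for Sardh (0.0585), with replicate 0 alone for CG3597 (0.0566), and with replicate 0 alone and library totals for dob (0.0766 and 0.0605). CG11211 alone shifted the other way (-1.33, adjusted p = 0.0242), a call lost in 8 of the 12 fits that left out a library.

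**Figure D3:**
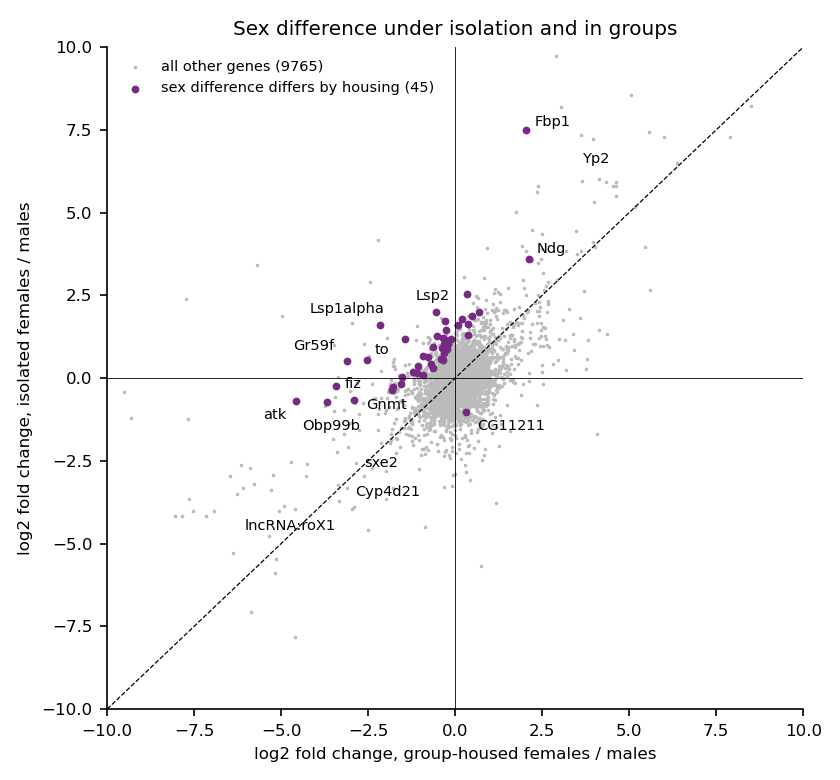
Sex difference in isolated flies (y axis) against that in group-housed flies (x axis), both as log2 fold changes of females over males, for 9810 genes. Purple points are the 45 genes whose difference between housing conditions passed, 44 of them above the dashed line of equal difference; roX1, Cyp4d21, sxe2 and Yp2 have the same sign in both conditions, and takeout (to), atk, Gr59f, Obp99b, fiz and Gnmt lie at the left, where males were higher in groups.

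Among the chemosensory families, most receptor genes did not pass. None of 28 odorant receptors and none of 8 gustatory receptors was called by edgeR. Under an unadjusted p of 0.05 were 2 and 1 of these genes, beside 1650 of all 9810. DESeq2 called none and limma-voom called 1 gustatory receptor. Of 19 tested ionotropic receptors, Ir31a was higher in males (-1.47, adjusted p = 0.0449, and 0.164 without isolated female 1). Over all 9810 genes 4.37% passed, so the counts of the receptor lists are near the background. Of 30 tested odorant binding proteins, small carriers secreted around sensory neurons and, for some, by the fat body, 5 were higher in females and 1, Obp56b, in males. Their median log2 fold change was -0.28, beside -0.31 for the odorant, -0.59 for the gustatory and -0.30 for the ionotropic receptors. Over all genes the median was -0.02. Obp99a was at 112, 100 and 107 CPM in isolated females and at 1.99, 1.55 and 2.57 CPM in isolated males, which gave 5.80 on the log2 scale (SE 0.32; adjusted p = 2.23e-08). Obp56e averaged 110.2 ± 12.1 CPM against 24.4 ± 5.67 CPM (2.15, adjusted p = 2.02e-06), and Obp99c 383 ± 24.2 CPM against 206 ± 49.5 CPM (0.89, adjusted p = 0.00486). Obp83cd and Obp83ef, which overlap each other, had log2 fold changes of 3.89 and 1.72, both with an adjusted p of 0.0028. In batch 2 only, the calls of Obp83cd, Obp83ef and Obp99c were lost, and that of Obp99c also with library totals.

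Of 14 tested pickpocket genes, which encode subunits of DEG/ENaC sodium channels, 3 were higher in females, and all 3 were low. Over all genes 3.7% were higher in females, and the median log2 fold change of the 14 was 0.05. ppk19 was at 7.24, 8.55 and 8.31 CPM in isolated females and at 0.306, 0.0619 and 0 CPM in isolated males (adjusted p = 0.000328). ppk30 was at 8.32, 7.65 and 6.24 CPM in females and at 0.306, 0.0619 and 0 CPM in males (adjusted p = 0.000457). ppk20 had 118 reads over the isolated females and 2 over the isolated males. Scaled to total counts, the ratio was 123 (95% counting interval 33.2 to 1020, adjusted p = 0.000584). In the BDGP6.54 annotation these 3 genes and Obp99a are consecutive on chromosome 3R, from 29666814 (ppk20) to 29674223 (ppk19), with gaps of 271, 178 and 121 bases between them. The next gene on the left, ppk21, was not tested, and the next on the right, Bub3, which overlaps the end of ppk19 on the other strand, averaged 22.0 CPM in females and 19.3 CPM in males (log2 fold change 0.19, adjusted p = 0.675). This run of neighbours was noticed after the values were seen. Whether reads running past the end of a gene have a part in it was not tested.

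Every called gene of the immune lists was higher in females, beside 84.6% of all 429 calls. These lists do not hold TotC, given above as higher in males. Over all genes 3.7% were higher in females and 0.673% in males. Of 34 tested antimicrobial effectors 7 were higher in isolated females and none in males, with a median log2 fold change of 0.83; in groups 10 were higher in females. AttC, an attacin, was at 332, 410.2 and 385 CPM in isolated females and at 80.8, 169 and 175 CPM in isolated males (log2 fold change 1.45, adjusted p = 0.0119, and 0.0609 without isolated male 0). DptB, a diptericin, averaged 89.2 ± 23.3 CPM against 27.0 ± 14.1 CPM (1.76, adjusted p = 0.0046), and Drs (drosomycin), the Toll-pathway antifungal peptide, 25.1 ± 4.95 CPM against 4.44 ± 2.24 CPM (2.41, adjusted p = 0.0118, and 0.0822 without isolated male 0). Male library 0 was the lowest of the males for AttA, AttC and DptB. Dso1, a member of the short Daisho peptides, averaged 597 ± 77.6 CPM against 259.8 ± 8.51 CPM (1.19, adjusted p = 0.00021), and differed by housing (interaction 1.32, adjusted p = 0.00636, and 0.0642 with library totals). AttA and AttB are near-identical copies and uncertain as single genes. Of 33 recognition and signalling genes, 7 were higher in females and none in males, among them PGRP-SB1 (1.15, adjusted p = 0.000114), the protease gene Hayan (0.93, adjusted p = 0.00719, and 0.0819 without isolated male 0) and PGRP-LB (0.79, adjusted p = 0.0156, and 0.123 without isolated male 0). Under scaling by library totals the 2 lists held 4 and 1 genes higher in females, and with replicate 0 alone 1 each.

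Of 20 hemocyte and basement membrane genes, 8 were higher in isolated females and none in males, with a median log2 fold change of 0.62. They were the membrane components Ndg, LanA, LanB1, LanB2 and Col4a1 and the blood cell genes Hml, eater and NimC1. LanB2, a laminin subunit, averaged 199.8 ± 20.4 CPM against 85.1 ± 11.1 CPM (1.23, adjusted p = 0.00078). The phagocytosis receptor gene eater averaged 41.4 ± 12.5 CPM against 19.4 ± 6.25 CPM (1.10, adjusted p = 0.00264), and the collagen gene Col4a1 704 ± 24.9 CPM against 386 ± 25.3 CPM (0.88, adjusted p = 0.0229, and 0.149 without isolated female 1). Without TMM scaling, the summed level of the list was 6300 CPM in the female and 4726 CPM in the male library of batch 1, and 4479 and 4286 CPM in females against 3769 and 3043 CPM in males of batch 2. Females were above males within each batch. With replicate 0 alone Ndg was the single member that passed, and 3 passed under scaling by library totals.

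Of 83 tested cytosolic ribosomal proteins, 13 were higher in isolated females, none was higher in males and 70 did not pass, with a median log2 fold change of 0.47, beside 15 and 0.57 in groups. RpL39 was at 50.0, 77.0 and 82.1 CPM in females and 34.1, 34.5 and 35.7 CPM in males (0.96, adjusted p = 0.00264), with the batch 1 female the lowest. None passed with replicate 0 alone, 6 passed with library totals and 31 with DESeq2. Without TMM scaling, the summed level ran from 13860 to 17880 CPM in females and from 10930 to 16530 CPM in males, so that isolated male 1 lay within the female range. Of 22 muscle genes, Mlp84B and Mlc2 were higher in females (both 0.83, adjusted p = 0.00129 and 0.0111), the latter not without isolated female 1 (0.0998). Of 63 respiratory chain genes, ATPsyndelta (1.03, adjusted p = 0.00126) was higher in females. Over all 9810 genes 3.7% were higher in females, so such small counts of calls say nothing particular about the muscle and respiratory chain lists. The muscle list as a whole leaned to females, with a median log2 fold change of 0.34, against -0.02 over all genes. The median of the respiratory chain list was 0.0039. Every female library lay above every male library for 10 of the 22 muscle genes and 6 of the 63 respiratory chain genes. Among all tested genes this was seen for 12%. In groups the muscle median was 0.345.

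**Figure D4:**
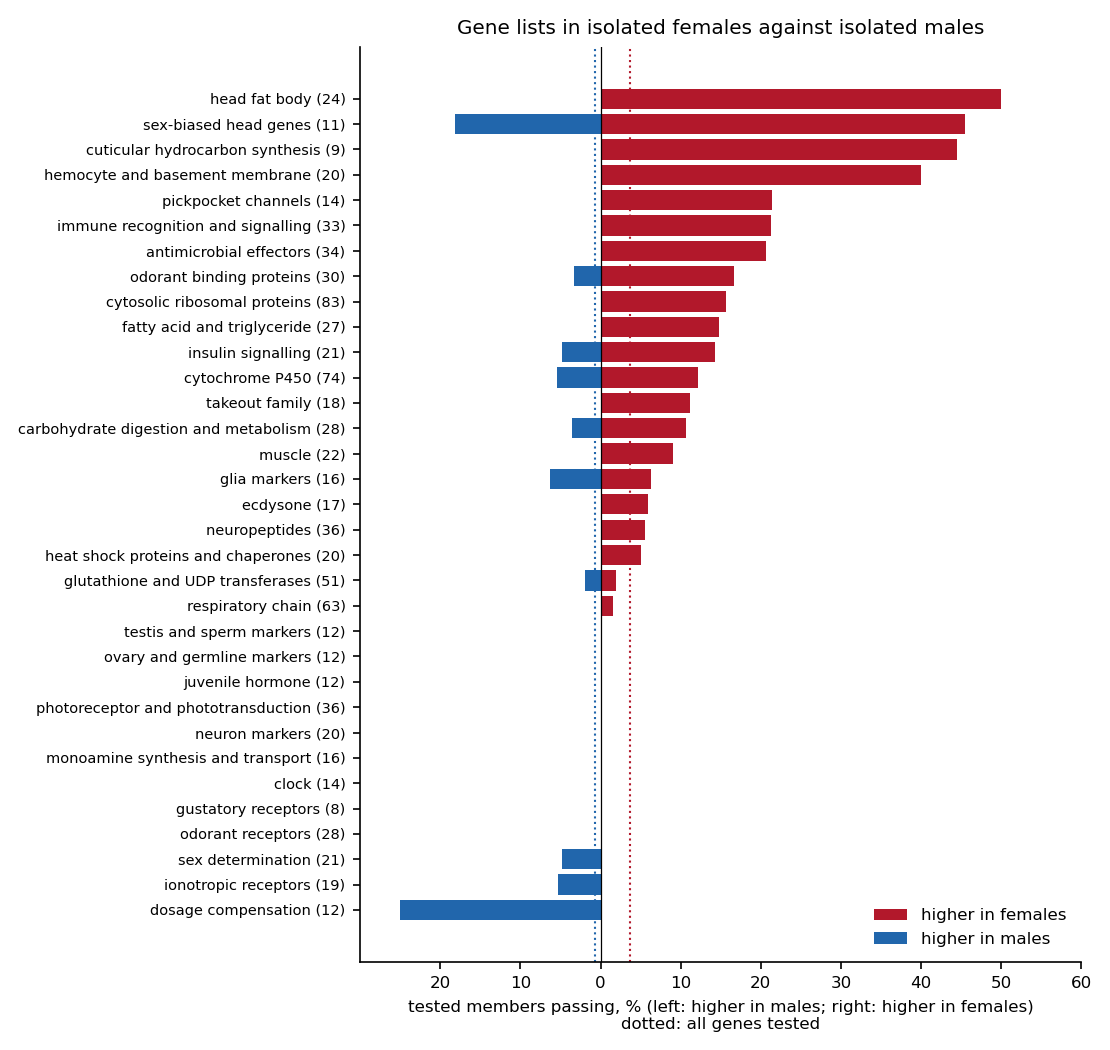
Share of the tested members of each gene list that passed between isolated females and isolated males. Bars to the right are members higher in females and bars to the left members higher in males, in percent of the number tested, which stands in brackets; dotted lines are the shares over all 9810 genes, 3.7% and 0.673%. Head fat body has 12 of 24 members to the right and dosage compensation 3 of 12 to the left, while the neuron, photoreceptor, clock and odorant receptor lists have no bar.

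Metabolic genes passed in both directions. Of 74 tested cytochrome P450 genes, 9 were higher in females and 4 in males, the latter Cyp4d21, Cyp313a1, Cyp4d14 and Cyp6a8; in groups 1 was higher in females and 8 in males. Cyp18a1, which inactivates the moulting hormone ecdysone, averaged 39.3 ± 11.7 CPM in isolated females and 14.6 ± 4.73 CPM in isolated males (1.43, adjusted p = 0.00163). Of 9 tested genes of cuticular hydrocarbon synthesis, the pathway of the waxy pheromones, 4 were higher in females. These were Desat1, the fatty acid synthase gene FASN1 (0.93, adjusted p = 0.0254), and the elongase genes bond (0.60, adjusted p = 0.0124) and Baldspot (0.76, adjusted p = 0.0177). The last 3 calls were lost without single libraries, with an adjusted p of up to 0.157 and 0.103 for FASN1 and Baldspot without isolated female 1 and 0.06 for bond without isolated female 0. Of 27 fatty acid and triglyceride genes 4 were higher in females, led by the lipase gene dob at 91.9, 103 and 106 CPM against 28.5, 33.7 and 23.9 CPM (adjusted p = 1.62e-06). The others, Lsd-2, Desat1 and FASN1, are also counted in the head fat body list. Desat1 and FASN1 are counted among the hydrocarbon genes as well. Of 28 carbohydrate genes, the glucosidase gene tobi (1.01, adjusted p = 0.00562), fbp (0.83, adjusted p = 0.0124) and Gpdh1 were higher in females and the maltase gene Mal-B1 in males (-1.0, adjusted p = 0.0327). fbp was lost without isolated female 0 (0.0793) and Mal-B1 without isolated female 1 (0.169). The call of tobi was lost with library totals, without a batch term and in batch 2 only. Of 51 glutathione and UDP transferase genes, Ugt37A1 was higher in females and Ugt37B1 in males. Of 20 heat shock and chaperone genes Gp93 was higher in females (0.57, adjusted p = 0.0311, and 0.184 without isolated male 0). Over all 9810 genes 3.7% were higher in females and 0.673% in males, so single calls say nothing particular about the transferase and chaperone lists.

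Among hormones of the insulin family, Ilp6, which the fat body secretes, was at 103, 119 and 108 CPM in isolated females and 69.6, 59.7 and 68.3 CPM in isolated males (0.73, adjusted p = 0.00659). Ilp3, a product of brain insulin cells, averaged 18.4 ± 1.32 CPM against 8.57 ± 3.30 CPM (1.07, adjusted p = 0.0461, and 0.179 without isolated male 0). Thor, the translation repressor 4E-BP, averaged 102 ± 13.4 CPM against 58.0 ± 14.9 CPM (0.78, adjusted p = 0.0157, and 0.0867 without isolated female 1). These 3 and Sdr were the called genes among 21 of insulin signalling. Ilp6 and Ilp3 were the called genes among 36 neuropeptides, and none of the 3 female-higher insulin genes passed under scaling by library totals. Over all 9810 genes 4.37% passed, so 2 of 36 neuropeptides is near the background.

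Lists of neuronal, sensory and juvenile hormone genes held no call. None of 20 neuron markers, 36 photoreceptor and phototransduction genes, 14 clock genes, 16 genes of monoamine synthesis and transport or 12 juvenile hormone genes passed in edgeR, with 1, 1, 2, 5 and 3 genes under an unadjusted p of 0.05. Over all 9810 genes, 1650 were under that p. limma-voom called none of the genes of these lists, and DESeq2 called 1 neuron marker, higher in males. Since 4.37% of all 9810 genes passed, a count of 0 in lists of 12 to 36 genes is near the background and says nothing particular about these lists. The summed level of the photoreceptor list was 23260, 25610 and 27110 CPM in isolated females and 24450, 25640 and 27830 CPM in isolated males; the sexes overlapped, and these markers of the eye were present in all 6 libraries. The neuron list summed to 12450 ± 269 CPM in females and 14210 ± 1273 CPM in males, without TMM scaling. Of 16 glia markers, the citrate transporter gene Indy was higher in females (0.60, adjusted p = 0.0178, and 0.104 without isolated female 1) and alrm, given above, in males. None of 12 tested ovary and germline markers passed, with 1 under an unadjusted p of 0.05; DESeq2 called 1 and limma-voom none. None of 12 testis markers passed with edgeR, DESeq2 or limma-voom, with 4 under an unadjusted p of 0.05; in groups 6 of these 12 were higher in males, where the sum was highest in group-housed male 0, as given above. No Y-linked gene and no accessory gland marker passed the filter on low counts.

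The X chromosome is single in males. Of 1632 tested X-linked genes 4.11% were higher in isolated females and 1.41% in isolated males, against 3.64% and 0.528% of 8142 genes on the large autosomes and chromosome 4. The median log2 fold change was 0.05 on the X and -0.04 on the autosomes, and the quartiles of X-linked genes were -0.19 and 0.26. In groups the medians were 0.0017 and -0.0098. The 94 tested genes of chromosome 4, the small dot chromosome, had a median of -0.20. Of these, 1 gene, apolpp, was higher in females and none in males. Within batches the median was -0.13 in batch 1 and -0.24 in batch 2. In group-housed flies the chromosome 4 median was similar, at -0.16.

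**Figure D5:**
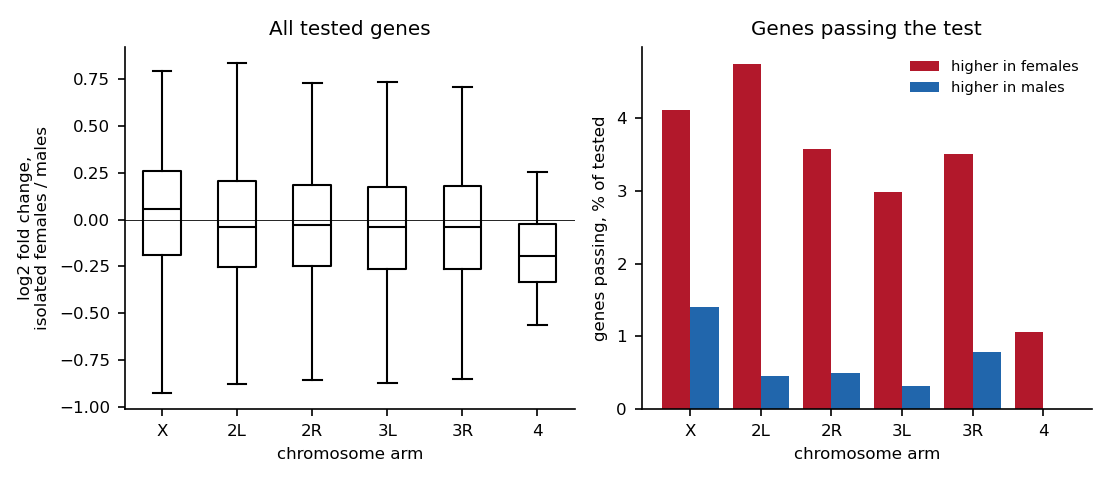
Isolated females against isolated males by chromosome arm. Left, log2 fold change of all tested genes per arm, with the median, the quartiles as the box and whiskers at the 5th and 95th percentiles; right, percentage of tested genes that passed higher in females (red) or higher in males (blue). The medians lie between -0.04 and 0.05 on the X and the large arms and at -0.20 on chromosome 4, and the X has the highest share of genes higher in males, 1.41%.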

How the data were processed

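The authors deposited whole-number read counts per feature, 1 column per library, not normalised. Per the submitters' processing notes, the tools were STAR (2.7.10b), Picard (2.27.5), HTSeq (2.0.5), and edgeR (4.4.1) under R 4.4.0; their roles are not stated. Genome build, annotation release and strand setting are not given in the sources used. Lines that name no gene held 10.2% to 13.2% of each column. They entered neither library sizes nor tests; nor did a number per feature that is tied to no sample. Nothing in the labels ties the pools of heads to separate cultures; p-values therefore reflect the spread of these libraries, possibly technical. Counts of isolated replicates differed by more than sampling noise (4.55 to 22.6 chi-square units per degree of freedom), and each was used as 1 sample.

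Of 24228 features, 17856 carry a gene identifier, and 17816 of these matched the BDGP6.54 annotation, used for positions and overlaps. edgeR 4.0.16 in R 4.3.3 kept 9810 genes with filterByExpr (minimum count 10, minimum total 15), computed TMM factors and fitted a robust quasi-likelihood model (4 group means, plus batch) to all 12 libraries, leaving 7 residual degrees of freedom. Contrasts were tested with glmQLFTest and adjusted by Benjamini-Hochberg over 9810 genes, with a threshold of 0.05. Adjusted p-values come from it throughout, except where another tool is named. The standard error is the log2 fold change divided by the square root of F. CPM of genes are TMM-scaled, those of list sums are not, and within-batch values are differences of log2(CPM + 0.5). Total counts per library, 2584050 to 17122099, set the precision, which was lowest in isolated females 1 and 2. Alternatives used DESeq2 1.42.0, limma 3.58.1 (voom), other scalings, filters and terms, and left out single libraries. The code was tested on simulated data.

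Named genes are takeout; the 12 largest changes per direction (mean log2 CPM 1 or more, no overlap of libraries); the 8 smallest interaction p per direction; up to 3 passing members of each of 38 gene lists; and the tested members of the yolk, sex determination and dosage compensation lists. fit, Lsp2, Obp99b, Obp99c, fiz, Gnmt, Apoltp, apolpp, Col4a1, Drs, AttC, Gcat, Cyp309a2, the gene run on 3R and genes named only in a list's count were picked with their values in view. The comparison and the lists were chosen with earlier results of these data known; of 1283 listed symbols, 58 matched no gene.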

Additional observations from a re-analysis of the deposited data

Results flagged for a closer look

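The sex difference differed between isolated and group-housed flies, by the interaction test in edgeR, for 18 of the named genes. Each value below is the log2 fold change of females over males in isolation minus that in groups, and no explanation was tested. The fat body and storage genes Fbp1, Lsp1alpha and Lsp2 had 5.47, 3.75 and 2.54. Lsp2 lost its call under scaling by library totals (2.25, adjusted p = 0.0594), without a batch term (2.42, adjusted p = 0.076) and when replicate 0 alone stood for isolated females (1.90, adjusted p = 0.279). Genes higher in group-housed males with a smaller sex difference in isolation, or none that passed, were atk (3.88), Gr59f (3.62), fiz (3.17), takeout (3.08 for to), Obp99b (2.94) and Gnmt (2.23). Obp99b lost its call under scaling by library totals (2.65, adjusted p = 0.091), with no filter on low counts (2.89, adjusted p = 0.129), without a batch term (2.89, adjusted p = 0.141), in batch 2 only (3.25, adjusted p = 0.155) and with replicate 0 alone (2.96, adjusted p = 0.146). Gnmt lost it with library totals (1.97, adjusted p = 0.0829) and with replicate 0 alone (2.05, adjusted p = 0.167). For fiz it was lost without a batch term (3.19, adjusted p = 0.0619) and with replicate 0 alone (3.0, adjusted p = 0.0636).

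Among genes of metabolism, Cyp4s3, dob, Sardh and tobi had 2.02, 1.60, 1.57 and 1.35. In batch 2 only, these fell short of the threshold (1.9, 1.55, 1.37 and 1.11; adjusted p = 0.0656, 0.0831, 0.0656 and 0.876). The call of tobi was lost in 9 of 12 fits that left out a library and in 6 other alternatives. CG34166 and CG3597, which the files give no further name, had 2.61 and 1.73, the latter not called in batch 2 only (1.65, adjusted p = 0.0656) or with replicate 0 alone (1.67, adjusted p = 0.0566). The basement membrane gene Ndg had 1.48 and the immune peptide gene Dso1 1.32. Both lost their call with library totals (adjusted p = 0.0626 and 0.0642), in batch 2 only (0.233 and 0.257) and with replicate 0 alone (0.0571 and 0.12). CG11211 had -1.33, the single negative value, and it lost its call in 8 of 12 fits that left out a library. Groups of 3 libraries are too small for a test of single outlying libraries.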

How the results depend on the processing

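Calls between isolated females and males numbered 429 and moved to 690 with DESeq2 (548 higher in females, 142 in males), 270 without a batch term (241 and 29), 129 in batch 2 only (112 and 17), 223 with glmTreat at a minimum fold of 1.2 (201 and 22) and 67 with replicate 0 alone (60 and 7). Library totals gave 154 and 169, and no filter gave 111 higher in males. Leaving out 1 library gave 201 to 628 in all, 183 to 508 higher in females and 18 to 120 higher in males. The 45 interaction calls became 15 with library totals, 83 without a filter, 142 with DESeq2, 76 with limma-voom, 28 without a batch term, 12 in batch 2 only, 11 with replicate 0 alone and 33 to 84 without 1 library. The 272 group-housed calls became 780 without a filter, 431 with DESeq2, 420 with limma-voom, 111 in batch 2 only, 175 with glmTreat and 174 to 489 without 1 library.

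The replicate block in place of the batch gave 510 calls in isolation and 71 interactions. Deviations of same-numbered isolated libraries from their group means correlated at 0.29, -0.01 and 0.18 for replicates 0, 1 and 2. Males 0 and 2 correlated best with the female of the same number, and male 1 with female 0 (0.0566). Batch was not removed from these deviations and each mean rests on 3 libraries, so they cannot decide whether the numbers pair samples.

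Reversals concerned genes that did not pass. With library totals the log2 fold changes were -0.16 for emc, -0.14 for gro, -0.0639 for JIL-1, -0.11 for msl-1, -0.0846 for nito, -0.0713 for Su(var)3-7 and -0.13 for Top2. With replicate 0 alone they were 0.0506 for dsx, 0.12 for Mettl3, -0.21 for Su(var)3-7, -0.26 for Top2 and 0.20 for Ythdc1. Leaving out 1 library gave -0.12 to 0.17 for emc, -0.0433 to 0.15 for gro, -0.31 to 0.0784 for Mettl14, -0.0126 to 0.17 for msl-1, -0.00363 to 0.31 for Su(var)3-7, -0.0293 to 0.23 for Top2, -0.16 to 0.0363 for vir and -0.17 to 0.061 for Ythdc1. The causes were not tested. Depth limits low genes most in isolated females 1 and 2.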
